A study of Homo sapiens with 7 samples.

Results

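Genes that mark the epithelial or the mesenchymal state of a cell were read in HCT116, an established human colon adenocarcinoma cell line. The 10 genes were chosen by name, with earlier results of these data known. They are the epithelial adhesion genes CDH1 and EPCAM, the mesenchymal genes CDH2, VIM and FN1, and the transcription factors ZEB1, ZEB2, SNAI1, SNAI2 and TWIST1. All 10 were found among the 20423 genes of the expression table, and none was listed at 0. The table comes from 1 polyA RNA-seq library of the cell line. No genotype change, drug, dose or time is stated for that library, apart from a growth text shared by every sample that adds G418 to select cells with a transposon; whether the RNA came from selected cells is not stated. The same series also maps piggyBac transposon insertions in HCT116, from 2 libraries of an SP1 fusion of the transposase (SP1_PB) and 3 libraries of its unfused form (WT_PB), together with SP1 ChIP-seq peaks from 1 sample. Insertions and peaks are given on hg18 and were not tied to these genes here.

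Epithelial cells hold on to their neighbours through adherens junctions, in which E-cadherin on one cell binds E-cadherin on the next and catenins join it to actin. In the epithelial to mesenchymal transition, zinc finger and basic helix-loop-helix repressors of the SNAI, ZEB and TWIST families bind E-box motifs and silence E-cadherin, while N-cadherin, vimentin and fibronectin appear. The transition is studied in colon carcinoma because cells that lose adhesion can leave the primary tumour.

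The RNA was quantified by the authors as RPKM, reads scaled to transcript length and to the mapped reads of the library, so that levels of different genes can be set side by side per length. With 1 library there is no replicate, no spread and no test, and each value below is a single measurement. The depth of the library is unknown, which leaves every value without a counting interval. The median over all 20423 genes was 1.91 RPKM, and rank 1 is the highest value.

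The epithelial adhesion genes were the 2 highest of the 10, followed by SNAI1 and FN1, and the other 6 lay below the median of all genes. At or above 1 RPKM stood 4 of the 10 members (EPCAM, CDH1, SNAI1 and FN1), against 57.0% of all genes. At or above 10 RPKM stood EPCAM, CDH1 and SNAI1, against 24.4% of all genes. At or above 0.1 RPKM stood 8 members, all but CDH2 and ZEB2, against 71.9% of all genes, and all 10 were above 0, as were 83.4% of all genes. The median member had 0.807 RPKM.

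**Figure D1:**
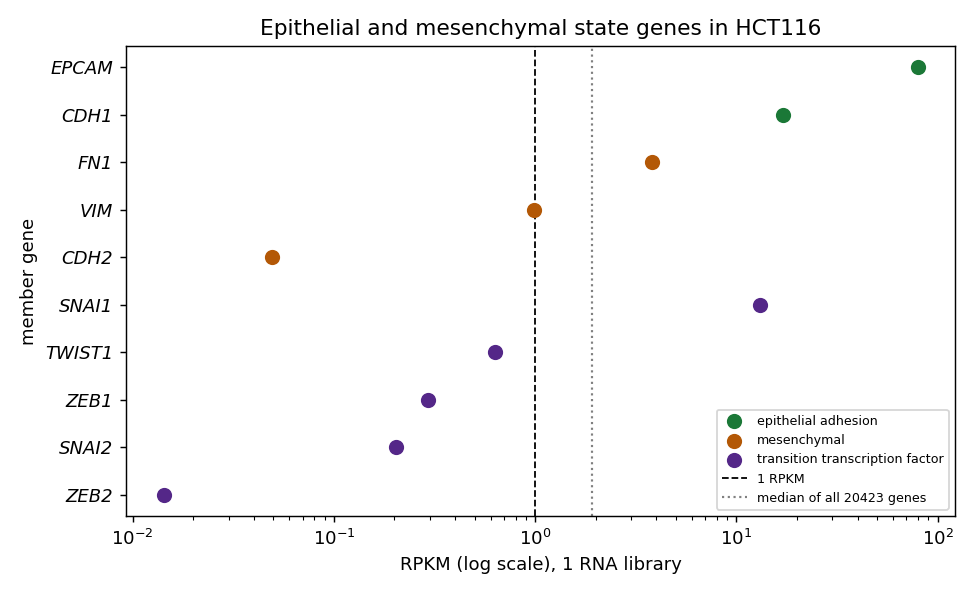
RPKM of the 10 member genes in the HCT116 library on a log axis, one point per gene, grouped and coloured by class. The dashed line marks 1 RPKM and the dotted line the median of all 20423 genes; EPCAM, CDH1, FN1 and SNAI1 lie to the right of both lines and VIM lies just left of the dashed line at 0.984 RPKM.

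EPCAM, the epithelial cell adhesion molecule that epithelia and their carcinomas carry on the cell surface, had 79.5 RPKM. It ranked 675 of 20423, above 96.7% of all genes. CDH1, which encodes E-cadherin, had 17.0 RPKM and ranked 3314, above 83.8% of all genes. The level of EPCAM was thus 4.67 times that of CDH1.

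Genes for the partners of E-cadherin were set beside CDH1. Of 9 catenin and junction genes, 5 exceeded CDH1, which itself lay above 83.8% of all genes. At or above 1 RPKM stood 6 (66.7%), against 57.0% of all genes. Listed at 0 were 3, against 16.6% of all genes. Their median was 20.2 RPKM, against 1.91 for all genes. JUP, which encodes plakoglobin, had 114 RPKM, CTNNA1, the alpha-catenin that links the complex to actin, had 93.8, and CTNNB1, beta-catenin, had 53.0, a level 3.11 times that of CDH1. The 3 at 0 were CTNNA2, CTNNA3 and CTNND2, the catenins known from neurons, heart and testis.

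Among 22 cadherin genes, CDH1 was not the highest. CDH3, which encodes P-cadherin and lies next to CDH1 in the RefSeq annotation of GRCh38 with no protein-coding gene between them, had 32.1 RPKM (rank 1790), 1.89 times the level of CDH1. Of the summed cadherin RPKM, 48.5% came from CDH3, 25.7% from CDH1, 19.9% from CDH24 at 13.2 RPKM and 0.0741% from CDH2. CDH15, the muscle cadherin, had 1.86 RPKM and CDH22 had 1.69. Of the 22 cadherins, 5 were at or above 1 RPKM, against 57.0% of all genes, and 9 were listed at 0, against 16.6% of all genes. The remaining cadherins were above 0 and below 1 RPKM.

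Partners of EPCAM were also measured. CLDN7, the claudin that binds EPCAM, had 198 RPKM (rank 226), 2.49 times the level of EPCAM. CD44, a hyaluronan receptor found in complexes with EPCAM, had 66.7 RPKM, and FHL2, which binds the cut intracellular end of EPCAM, had 66.5. ADAM17 and PSEN2, which belong to the protease machinery that releases that end, had 11.0 and 11.1 RPKM. TSPAN8, a tetraspanin of the same complexes, was listed at 0.

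Of 17 genes that regulate the epithelial state or are typical of epithelial cells, 14 (82.4%) were at or above 1 RPKM, against 57.0% of all genes. None was listed at 0, against 16.6% of all genes, and their median was 16.7 RPKM. The 3 highest were SPINT2, an inhibitor of membrane serine proteases, at 175 RPKM, RAB25, a small GTPase of epithelial membrane recycling, at 102, and SPINT1, a second inhibitor of that kind, at 71.5. ESRP1, a splicing factor of epithelial cells, had 40.3 RPKM, ESRP2 had 16.7 and GRHL2, a transcription factor that activates CDH1, had 4.57. Of the other transcription factors in the list at or above 1 RPKM, ELF3 had 39.2 RPKM, OVOL1 7.70, EHF 5.66 and GRHL1 2.95. OVOL2, GRHL3 and ELF5 were the 3 below 1 RPKM, at 0.717, 0.697 and 0.0910.

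**Figure D2:**
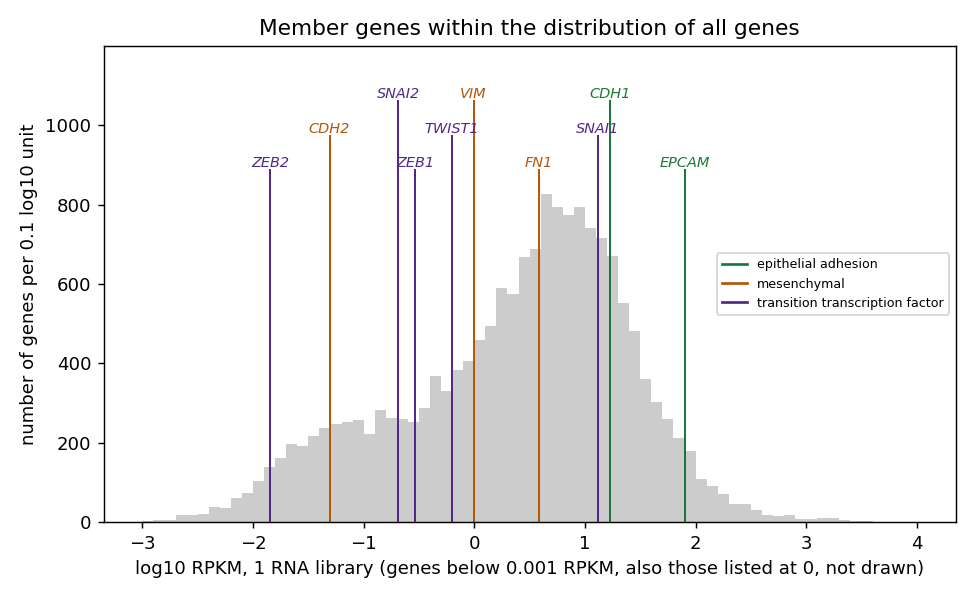
Number of genes per 0.1 unit of log10 RPKM in the HCT116 library, with a line for each of the 10 members coloured by class; genes below 0.001 RPKM are not drawn. EPCAM lies on the right shoulder, CDH1 and SNAI1 lie right of the mode, and CDH2, SNAI2, ZEB1 and ZEB2 lie in the low tail.

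The mesenchymal genes spread over a wide range. FN1, which encodes fibronectin, a glycoprotein of the extracellular matrix, had 3.81 RPKM and ranked 8319, above 59.3% of all genes. VIM, the intermediate filament protein of mesenchymal cells, had 0.984 RPKM and ranked 11675, above 42.8% of all genes. CDH2, which encodes N-cadherin, had 0.0491 RPKM and ranked 15474, above 24.2% of all genes. FN1 was the 1 of the 3 at or above 1 RPKM, and their median was that of VIM. The level of FN1 was 3.87 times that of VIM, and 2.42 times with 1 RPKM added to both. The level of VIM was 20.0 times that of CDH2, but 1.89 times with 1 RPKM added to both.

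Between the classes, the level of CDH1 was 346 times that of CDH2, but with 1 RPKM added to both the ratio was 17.2, since CDH2 was close to 0. The level of EPCAM was 80.8 times that of VIM, and 40.6 times with 1 RPKM added to both. CDH1 and FN1 were closer, with CDH1 at 4.47 times the level of FN1. No error can be put on these ratios.

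Other mesenchymal genes were mixed. Of 24 measured, 7 (29.2%) were at or above 1 RPKM, against 57.0% of all genes. Listed at 0 were 5 of the 24, against 16.6% of all genes. Their median was 0.119 RPKM, against 1.91 for all genes. The 3 highest were S100A4, a calcium-binding protein also called fibroblast-specific protein, at 163 RPKM (rank 289), and COL6A2 and COL6A1, chains of collagen VI, at 33.5 and 25.6. The third chain, COL6A3, had 0.297 RPKM. LOXL2, a lysyl oxidase that cross-links collagen, had 10.8 RPKM. For collagen I, COL1A1 had 14.5 RPKM while its partner chain COL1A2 had 0.0277. ACTA2, POSTN, DCN, FAP and PDGFRA were the 5 listed at 0.

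Of the 5 transcription factors, SNAI1 was the highest and the 1 at or above 1 RPKM. SNAI1, the zinc finger repressor Snail, had 13.1 RPKM and ranked 4112, above 79.9% of all genes, and made up 92.0% of the summed RPKM of the 5. It lay close to CDH1, the gene it is known to repress, which had a level 1.30 times that of SNAI1. TWIST1, a basic helix-loop-helix factor, had 0.631 RPKM (rank 12431). ZEB1 had 0.292 RPKM (rank 13506) and SNAI2, also called Slug, had 0.205 (rank 13900). ZEB2 was the lowest of all 10 members at 0.0143 RPKM (rank 16516), with 509 genes between it and 0.

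Within the SNAI family, the level of SNAI1 was 64.0 times that of SNAI2, and 11.7 times with 1 RPKM added to both. SNAI3, the third family member, had 1.78 RPKM. ZEB1 and ZEB2 were both low, and their ratio of 20.5 came to 1.27 with 1 RPKM added to both, so it rests on values close to 0. In falling order the members were EPCAM, CDH1, SNAI1, FN1, VIM, TWIST1, ZEB1, SNAI2, CDH2 and ZEB2. The smallest steps were 1.30 times between CDH1 and SNAI1 and 1.43 times between ZEB1 and SNAI2, and that between EPCAM and CDH1 was 4.67 times. Without replicates, neighbours in this order cannot be said to differ.

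Other factors tied to the transition were at or above 1 RPKM at a share near that of all genes. Of 18 measured, 12 (66.7%) reached it, against 57.0% of all genes. TCF4 and PRRX1 were the 2 listed at 0, against 16.6% of all genes. The median of the 18 was 4.91 RPKM. The 3 highest were ID1 at 507 RPKM (rank 80), ID2 at 93.5 and HMGA2 at 83.5. ID proteins lack a DNA-binding region and pair with E proteins such as TCF3, which had 40.2 RPKM, and HMGA2 is a chromatin protein that activates SNAI1 and TWIST1. All 17 genes of the corepressors of SNAI and ZEB proteins and of the turnover of SNAI1 were at or above 1 RPKM. So were 57.0% of all genes and 94.4% of 18 genes that most cells express. The median of the 17 was 11.4 RPKM. Among these corepressor and turnover genes were HDAC1, a histone deacetylase, at 92.6 RPKM, CTBP1, the corepressor bound by ZEB proteins, at 67.5, and CSNK1A1, a casein kinase, at 41.3. GSK3B and BTRC, the kinase and the ubiquitin ligase subunit that send the SNAI1 protein to degradation, had 4.68 and 3.61 RPKM. Protein was not measured.

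**Figure D3:**
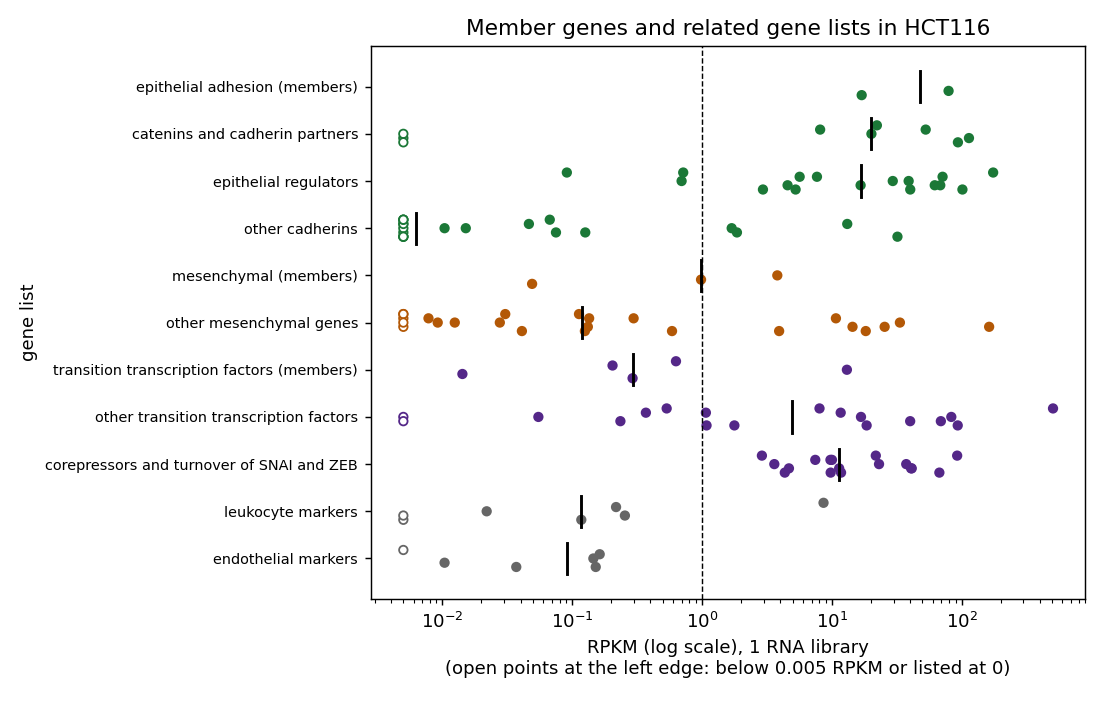
RPKM of member classes and related gene lists in the HCT116 library on a log axis, one point per gene, with a black bar at each list's median and a dashed line at 1 RPKM. Points of the catenin, epithelial regulator and corepressor lists lie mostly right of the dashed line, and most points of the other cadherins and of the mesenchymal, leukocyte and endothelial lists lie left of it; open points at the left edge are below 0.005 RPKM or listed at 0.

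ZEB1 and ZEB2 are known targets of the miR-200 family, microRNAs of epithelial cells that ZEB proteins repress in turn. The mature sequences are shown because the family divides into a pair of seeds that differ by 1 base. They were taken from RefSeq (GRCh38.p14), with the seed, bases 2 to 8, in capitals; this family was added after the values had been seen.

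hsa-miR-200a-3p: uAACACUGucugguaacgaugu

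hsa-miR-141-3p: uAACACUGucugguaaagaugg

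hsa-miR-200b-3p: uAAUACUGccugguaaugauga

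hsa-miR-200c-3p: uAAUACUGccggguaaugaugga

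hsa-miR-429: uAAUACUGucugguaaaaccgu

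The expression table lists the hairpin genes of all 5, and a polyA library reads their long precursors and not the mature forms. MIR429 had 1.03 RPKM, MIR200C 0.631 and MIR200B 0.451, the 3 genes with the seed AAUACUG. MIR200A and MIR141, with the seed AACACUG, were listed at 0, as were 413 of the 546 symbols that start with MIR. By position, MIR200B, MIR200A and MIR429 lie close together on chromosome 1, and MIR200C and MIR141 on chromosome 12. Each locus thus holds both seeds, and a gene listed at 0 beside one above 0. No difference between the seeds is read from these values. These values say nothing of the level of the mature microRNAs.

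Promoter windows from RefSeq (GRCh38.p14), 250 bases before to 50 after a start, were held for 5 of the 10 members (CDH2, VIM, FN1, ZEB1 and ZEB2), 12 windows in all, of which ZEB1 had 7. The E-box CAGGTG, on either strand, is the motif that SNAI and ZEB proteins bind. It was found in 2 of the 12 windows, both of ZEB1, against 20.6% of all 35116 windows. The GC box GGGCGG, on either strand, is a motif that SP1 binds. It was found in 8 of the 12 windows, against 45.0% of all windows. Of these 8, 5 were of ZEB1, and CDH2, VIM and FN1 had 1 each, while the window of ZEB2 had none. The windows of ZEB1 come from a single locus and are no separate cases.

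The stretch before the most upstream listed start of ZEB1 is shown as the window of its outermost start, which holds 1 match to the E-box. The other ZEB1 window with a match, at a start further downstream, holds 3 matches, 2 of them before the start, and is not shown. The stretch shown lies at chr10:31318167-31318416 on the plus strand, with the E-box in capitals and its GC box left in lower case. The E-box begins 57 bases before the start. The stretch before the start of FN1, the highest of the mesenchymal members, was added after its value had been seen. It lies at chr2:215436069-215436318 on the minus strand, with the GC boxes in capitals. It holds 6 matches, 4 of them without overlap, and 6.50% of all windows hold 4 or more such matches before the start.

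ZEB1: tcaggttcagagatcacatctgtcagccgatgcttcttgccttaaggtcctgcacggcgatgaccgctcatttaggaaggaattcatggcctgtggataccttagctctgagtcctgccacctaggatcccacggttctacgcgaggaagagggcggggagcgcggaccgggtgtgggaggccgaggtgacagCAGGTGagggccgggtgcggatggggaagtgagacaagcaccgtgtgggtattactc

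FN1: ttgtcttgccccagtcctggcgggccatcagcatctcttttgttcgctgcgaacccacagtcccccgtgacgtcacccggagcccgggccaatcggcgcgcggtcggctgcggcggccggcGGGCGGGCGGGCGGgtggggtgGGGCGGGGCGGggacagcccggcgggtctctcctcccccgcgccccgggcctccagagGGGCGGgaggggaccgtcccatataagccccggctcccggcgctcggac

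These are reference letters and were not read from HCT116 cells. A match is a run of letters and does not show that a factor was bound there.

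The label of the cell line was checked against markers. The keratins of simple epithelia were high, with KRT19 at 543 RPKM, KRT8 at 378 and KRT18 at 268. CDX2, a transcription factor of the intestine, had 9.19 RPKM. Of 11 colon epithelium markers, these 4 (36.4%) were at or above 1 RPKM, against 57.0% of all genes. The other 7 were below 1 RPKM, from LGR5, listed at 0, to KRT20 at 0.238. Between them lay CDX1, VIL1, CDH17, GPA33 and MUC2. The markers of differentiated and stem colon cells among the 11 were thus low or listed at 0. Of the leukocyte markers, CD68 had 8.65 RPKM, PTPRC and CD3E were listed at 0, and CD14, ITGAM and CD52 were at 0.255 or lower. The 6 endothelial markers PECAM1, CDH5, VWF, KDR, TEK and CLDN5 were all at 0.163 RPKM or lower. Of 6 fibroblast markers, DCN and FAP were listed at 0, COL1A2, COL3A1 and PDGFRB were at 0.135 RPKM or lower, and COL1A1 stood at 14.5. All 6 are also among the mesenchymal genes above. The share at or above 1 RPKM was 14.3% for leukocyte, 0% for endothelial and 16.7% for fibroblast markers, against 57.0% of all genes.

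Some limits touch these values. YWHAZ, a gene that most cells express, was listed at 0 while the other 17 of 18 such genes were at 12.8 RPKM or more, so a listing at 0 is no measure of absence. In the RefSeq annotation of GRCh38, antisense or divergent RNAs overlap CDH2, VIM, FN1, ZEB1 and ZEB2. ATIC, which had 38.6 RPKM, overlaps FN1, which had 3.81, and whether reads of ATIC were counted for FN1 was not tested. A long non-coding RNA overlaps TWIST1, annotated pseudogenes overlap CDH1 and ZEB1, and MIR559 overlaps EPCAM. SNAI1, VIM and ZEB2 have annotated pseudogenes of their own. The strand of the library is not given, so reads of a gene and its antisense partner cannot be told apart, and how reads of copies were assigned was not tested.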

How the data were processed

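One polyA RNA-seq library of HCT116 cells was used. Per the deposited readme, the authors aligned reads to hg18 with TopHat and derived an RPKM value for every RefSeq gene from Cufflinks, for which the submitters' processing notes name version 1.1.0. For filters, strand and depth the sources used here give nothing. RPKM is scaled to the mapped reads of the library, so reads of very abundant genes lower the values of all others, and low values rest on few reads.

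From these values were computed, with Python 3.11.15 and pandas 2.3.3, the rank of each gene (ties share the lowest rank number), the percent of genes below it, ratios, and counts at 1 RPKM. The ranking and motif steps were tested on simulated data. AFDN and AJUBA were matched by older symbols; LUM, TWIST2, GSC and MMP3 were not analysed here, and a few list genes are not reported here. Of each related list the 3 highest genes are named, with further genes chosen after their values were seen. The members and lists were chosen with earlier results of these data known. Thresholds of 0.1 and 10 RPKM, pseudocounts, other sets of ranked genes and a shorter promoter window were tried as alternatives. No hg18 annotation was used, so insertions and peaks were not assigned to genes.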

Additional observations from a re-analysis of the deposited data

How the results depend on the processing

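Main counts, medians and ratios were recomputed under other thresholds, pseudocounts and sets of genes, and a value was taken as moved when it changed by over 1.5 times. The count of 4 members at or above 1 RPKM was 8 at 0.1 RPKM and 10 for any value above 0 (71.9% and 83.4% of all genes), and 3 at 10 RPKM. The median of 0.292 RPKM of the transcription factors was 1.05 as a mean on the log2(RPKM + 1) scale and 0.566 with a pseudocount of 0.1; SNAI1 raises such a mean. The ratio of CDH1 to CDH2 was 17.2 with a pseudocount of 1 RPKM and 115 with 0.1, and that of EPCAM to VIM was 40.6 with 1. For 10 further ratios, an alternative chosen after seeing the data, pseudocounts of 1 and 0.1 RPKM gave 1.89 and 7.27 for VIM to CDH2, 1.27 and 3.43 for ZEB1 to ZEB2, 11.7 and 43.3 for SNAI1 to SNAI2, and 2.42 and 3.61 for FN1 to VIM; the other 6 moved by less than 1.5 times. The medians of the epithelial and mesenchymal members and the 2 promoter windows with CAGGTG moved by less. Of 24 rank alternatives, 19 moved by less. These include a rescaling of all values for each of the 10 members, which cannot change a rank and so could not move. Ranked among genes above 0, CDH2, SNAI2, ZEB1 and ZEB2 stood above 9.11%, 18.3%, 20.7% and 2.99% of genes. FN1 stood above 28.5% of genes at or above 1 RPKM. Of 30 list counts at other thresholds, 19 moved by less. No paired analysis was possible because the result comes from 1 library with no test, and no library could be left out. VIM at 0.984 RPKM lies so close to the threshold that its side of it is not resolved.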

Other observations

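Of 6 fibronectin receptor genes, 3 were at or above 1 RPKM, against 57.0% of all genes. ITGB1 and ITGA5, which together form the main fibronectin receptor, had 59.6 and 19.8 RPKM, and ITGAV had 4.63. ITGB3 had 0.210, ITGB6 had 0.0716 and ITGA4 was listed at 0.

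Other intermediate filament genes stood above VIM in 7 of 8 cases, as did 57.2% of all genes. The nuclear lamins LMNA, LMNB2 and LMNB1 had 145, 55.8 and 26.6 RPKM. PRPH, which encodes the neuronal filament protein peripherin, had 9.22 RPKM. SYNM, DES and NES, filament genes known from muscle and from neural progenitors, had 2.45, 2.35 and 1.88 RPKM, and GFAP had 0.936.

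Some genes for proteins that act on E-cadherin were measured as well. ADAM15 and ADAM10, proteases that shed it, had 53.3 and 9.21 RPKM, CBLL1, the ubiquitin ligase Hakai, had 11.2 and MMP7 had 0.690.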
